A study of Mus musculus with 6 samples.

Results

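The genes described here encode the machinery of the motile ciliary axoneme, the microtubule core that lets the cilia of airway cells beat. They were taken by name from the mRNA count table, as every row whose symbol begins with Dnah, Dnai, Cfap, Rsph, Tekt or Drc followed directly by a digit. This gave 71 of the 17973 mRNAs in the table: 36 Cfap, 15 Dnah, 8 Rsph, 5 Tekt, 4 Dnai and 3 Drc genes. The name decides membership, so genes such as Cfap418 and Cfap36, whose proteins are not parts of the axoneme core, are included. Expression was measured by RNA sequencing of whole lung from C57BL/6 mice, in 3 control libraries named C7, C8 and C9 and 3 libraries from silicotic lung named N129, N136 and N138. Silicosis, a fibrotic lung disease caused by crystalline silica, was induced by 1 intratracheal instillation of 8 mg of silica suspended in 40 µL of sterile saline, and lungs were snap frozen at 90 days. The series text names sterile normal saline for the comparison samples, and no further treatment, age or sex of the animals is given in the sources used here. The labels do not state that each library came from a separate mouse, so each p-value reflects only how much these libraries vary, which may be technical.

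In a motile cilium, outer and inner dynein arms sit along the peripheral doublet microtubules and walk on the neighbouring doublet to bend the cilium. Radial spokes carry signals from the central pair of microtubules to the arms, the nexin-dynein regulatory complex (N-DRC) links adjacent doublets, and tektins and other inner proteins stiffen the doublet wall from inside. In the lung these genes are expressed chiefly by multiciliated cells of the airway epithelium, where the RFX factors and FOXJ1 switch on the ciliary programme. Some family members serve mainly the sperm flagellum.

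Promoter sequence was examined because RFX and forkhead factors are the known regulators of this programme. RefSeq promoters of mouse build GRCm38.p6 were found for 57 of the 71 members, and the 250 bases before each start were searched on both strands. The RFX half-site form GTTGCCATG occurred in 3 of the 57 (5.26%), against 198 of the 27025 genes with a RefSeq promoter (0.733%). The palindromic X-box form, GTTNCC followed by any 2 bases and GGNAAC, occurred in 2 of 57 (3.51%), against 120 of 27025 (0.444%). The forkhead form GTAAACA occurred in 4 of 57 (7.02%), against 956 of 27025 (3.54%). No member had both RFX forms, so 5 members carried either of them. The 30-base stretches around these 5 matches, and around the forkhead match of Dnah17, are given on the strand of the gene, because 3 of the 6 genes are among the called members described next. Capitals mark the match.
Cfap298, palindromic form, chr16:90935016-90935045, minus strand: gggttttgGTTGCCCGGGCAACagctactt
Cfap20dc, palindromic form, chr14:8666371-8666400, minus strand: gcccctcaGTTGCCTGGGCAACggctcagc
Cfap161, half-site form on the opposite strand, chr7:83794862-83794891, minus strand: gcctggtcgtCATGGCAACgaagcacgcta
Cfap74, half-site form, chr4:155409193-155409222, plus strand: gcagccttccGTTGCCATGgagctgcgcgc
Cfap97d2, half-site form on the opposite strand, chr8:13705857-13705886, plus strand: gcctgggtgcCATGGCAACcgtcacatgac
Dnah17, forkhead form on the opposite strand, chr11:118129402-118129431, minus strand: caggggtacccTGTTTACctgatgaccctg
The first matched base lay 188, 102, 42, 37, 22 and 201 bases before the start, in the order shown. Of the 5 members with an RFX form, Cfap298 and Cfap161 were lower in silicosis and the other 3 were not called. Among tested members 11.4% were lower, and among all tested mRNAs 16.5%. A link between these forms and the calls was not tested. The forkhead matches of Cfap20, Cfap43 and Tekt3, not printed here, lay in members that were not called. No promoter was found for Rsph1, which was called lower. A match describes letters in this window and is not evidence of binding.

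Between 33698920 and 44000748 mRNA counts were available per library. Levels are given as CPM, counts scaled to a common library total after adjustment by the trimmed mean of M-values (TMM). Whole lung contains few ciliated cells, and in such bulk samples fewer ciliated cells and less RNA per ciliated cell cannot be told apart. Library C9 stood apart from the other controls for these genes. It was the highest control for 62 of the 70 members tested (88.6%), against 38.7% of all tested mRNAs. It was the highest of all 6 libraries for 56 members, and for 3382 of all 15808 tested mRNAs. Library N136 was the lowest of the 6 for 41 members, and for 3358 of all 15808 tested mRNAs. The summed level of the 70 members was 1567, 1609 and 2184 CPM in C7, C8 and C9, and 1636, 1350 and 1873 CPM in N129, N136 and N138. The groups therefore overlapped in the total amount of axoneme mRNA, with 2 silicosis libraries above 2 of the controls.

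The first question was which axoneme genes differed between silicotic and control lung. Most did not pass the test: 8 members were lower, 2 were higher and 60 were not called at an adjusted p under 0.05 (edgeR quasi-likelihood test, two-sided, Benjamini-Hochberg adjustment over all 15808 mRNAs tested). Over all tested mRNAs, 16.5% were called lower and 15.3% higher. The share of members called in either direction was 14.3%, below the 31.8% of all mRNAs. Rsph6a, a radial spoke head gene, had between 2 and 7 counts per library and was not tested. The median log2 fold change (silicosis over control) was -0.21 over the 70 members and 0.02 over all tested mRNAs, and 54 members (77.1%) had a negative value, against 47.7% of all mRNAs. The log2 fold change was under 0.25 in size for 30 members and at least 1 for 3. All 3 silicosis libraries lay below all 3 controls for 17 members and above them for 3, where the shares of all mRNAs were 24% and 23.7%. 
The counts moved with single libraries and are given with the share of all mRNAs called in the same fit. Without C9 the test called 4 members lower and 0 higher (9 and 4 at an unadjusted p under 0.05), where 13.2% and 11% of all mRNAs were called, and the median was -0.02 with 39 of 70 members negative. Without N136 it called 5 lower and 5 higher (14.8% and 12.4% of all mRNAs), with a median of -0.12. Without C7 it called 8 and 2 (12.5% and 10.1%), without C8 6 and 0 (11.6% and 10.1%), without N129 6 and 0 (11.9% and 10.4%), and without N138 11 and 1 (16.5% and 16.2%). Where the higher count was 0 without C8 or N129, 2 members were higher at an unadjusted p under 0.05 in each. Scaling the libraries to the members' own summed count, chosen after seeing the data, gave 4 lower and 0 higher (5 and 5 unadjusted), with 4.2% and 10.3% of all mRNAs called. The other tools gave 8 and 2 with limma-voom (16.6% and 14.7%), with DESeq2 size factors (16.6% and 14.8%) and without the count filter (14.5% and 12.9%), and 9 and 2 with DESeq2 (16.6% and 15.4%).

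**Figure D1:**
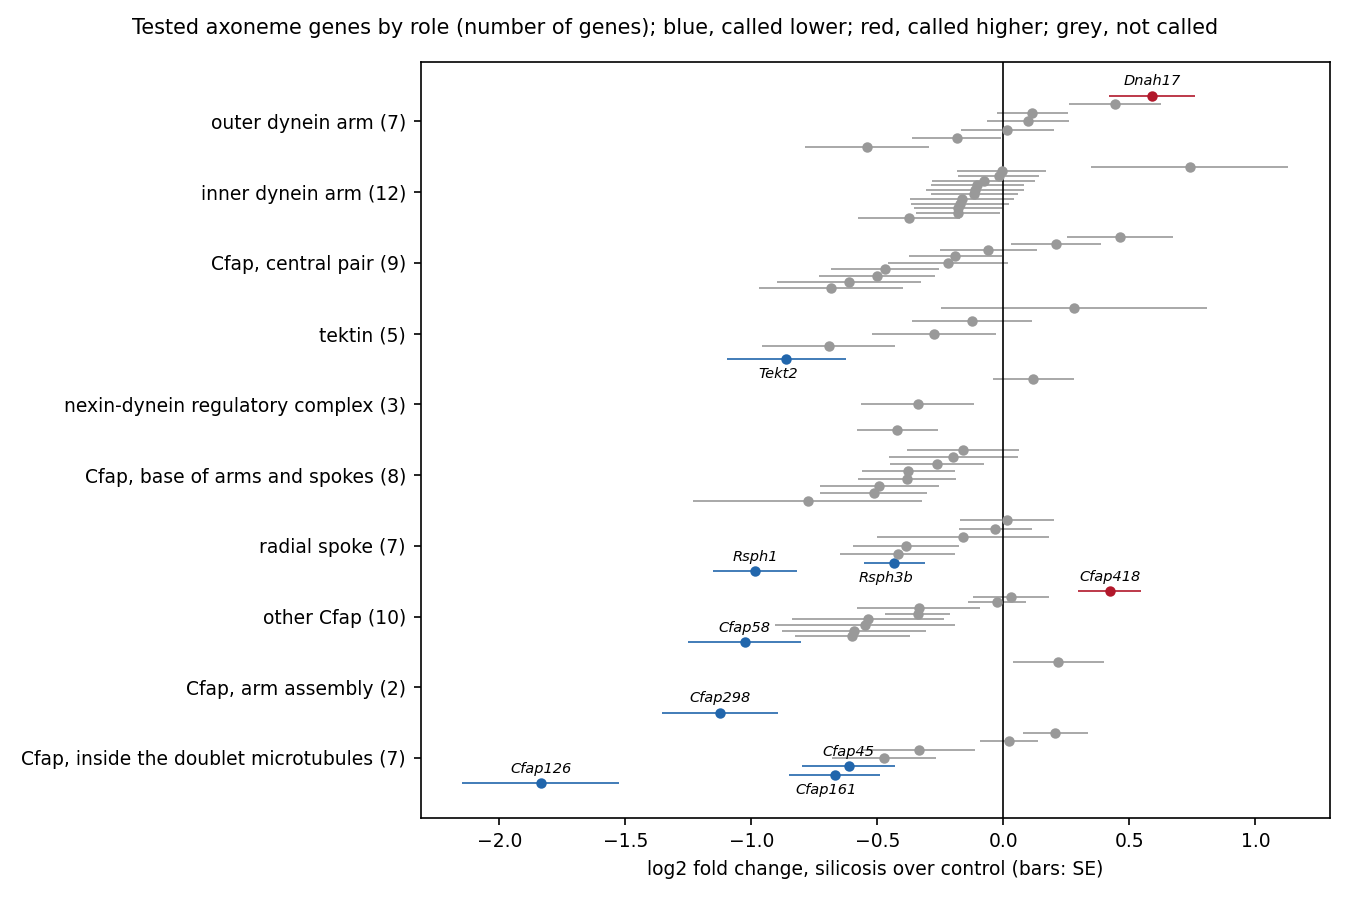
Log2 fold change of each tested axoneme gene (horizontal axis, silicosis over control) with its SE as a bar, grouped by role with the number of genes in brackets. Called members are blue (8 lower) or red (2 higher) and named, and the 60 grey points were not called. The 4 lowest points are Cfap126, Cfap298, Cfap58 and Rsph1, while the dynein arm genes lie close to 0 apart from a few.

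The clearest differences were in 4 genes. Cfap126, Cfap298, Cfap58 and Rsph1 were called lower in the full comparison, in all 6 fits that left out a library, and with each of the 4 other tools or settings. They were also called with libraries scaled to the members' summed count, which evens out that sum between libraries. The Dnah genes made up 757 of 1567 CPM of the sum in C7 and 845 of 1636 CPM in N129. A shift shared only by the other members is therefore not fully removed by this scaling.

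Cfap126, also called Flattop, encodes a protein inside the doublet microtubules. Its level was 11.2, 14.8 and 21.8 CPM in C7, C8 and C9, and 3.86, 3.14 and 6.43 CPM in N129, N136 and N138. The highest silicosis library was below the lowest control. The mean fell from 15.9 ± 5.40 to 4.48 ± 1.73 CPM (SD, n = 3 each), a log2 fold change of -1.84 (SE 0.31, edgeR adjusted p = 0.00252), or -72.0%. Leaving out libraries gave values between -2.19 and -1.55, and scaling to the members' total gave -1.70.

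Rsph1 encodes a radial spoke head protein. It stood at 19.2, 21.1 and 28.2 CPM in the controls and at 11.2, 10.6 and 12.8 CPM in the silicosis libraries N129, N136 and N138. All 3 silicosis libraries were close together and below every control. The mean went from 22.8 ± 4.72 to 11.5 ± 1.15 CPM (SD, n = 3 each), a log2 fold change of -0.99 (SE 0.17, edgeR adjusted p = 0.00234). The value was between -1.10 and -0.81 when libraries were left out and -0.83 with the members' scaling.

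Cfap58, a coiled-coil protein of the axoneme that is needed for the sperm flagellum, measured 9.29, 10.6 and 15.3 CPM in C7, C8 and C9. The silicosis libraries had 4.95, 5.37 and 6.95 CPM, again without overlap. The mean went from 11.7 ± 3.19 to 5.76 ± 1.06 CPM (SD, n = 3 each), a log2 fold change of -1.03 (SE 0.22, edgeR adjusted p = 0.00833). Leaving out libraries gave -1.18 to -0.79.

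Cfap298, which is needed to assemble the outer dynein arms, had 6.06, 8.26 and 11.04 CPM in the controls. N129, N136 and N138 had 3.99, 3.88 and 3.76 CPM, nearly the same level in each. The mean went from 8.45 ± 2.49 to 3.87 ± 0.117 CPM (SD, n = 3 each), a log2 fold change of -1.12 (SE 0.23, edgeR adjusted p = 0.00629). Of its longest transcript, 41.9% of the 50-base windows are shared with Gm49727 and 4930534H18Rik, so its counts are uncertain. No window of Cfap126, Cfap58 or Rsph1 is shared with another gene.

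Set against Dnah5, the outer-arm heavy chain that is the most abundant member by CPM, the groups also did not overlap for these 4 genes. The 4 genes were chosen for their calls and their CPM already did not overlap, as for 47.7% of all tested mRNAs. Dnah5 itself was not lower (log2 fold change 0.10), so the lack of overlap in these ratios is not a separate result. Per 100 counts of Dnah5, Rsph1 had 14.3, 13.7 and 13.4 counts in the controls and 6.15, 6.76 and 6.55 in the silicosis libraries. Cfap126 had 8.31, 9.62 and 10.3 against 2.12, 2.01 and 3.28. In these ratios C9 was no longer apart from the other controls for Rsph1. Cfap58 had 6.90, 6.85 and 7.28 against 2.72, 3.43 and 3.55, and Cfap298 had 4.50, 5.36 and 5.23 against 2.19, 2.47 and 1.92. A single reference gene shows unequal change within the set and not which of the genes changed.

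**Figure D2:**
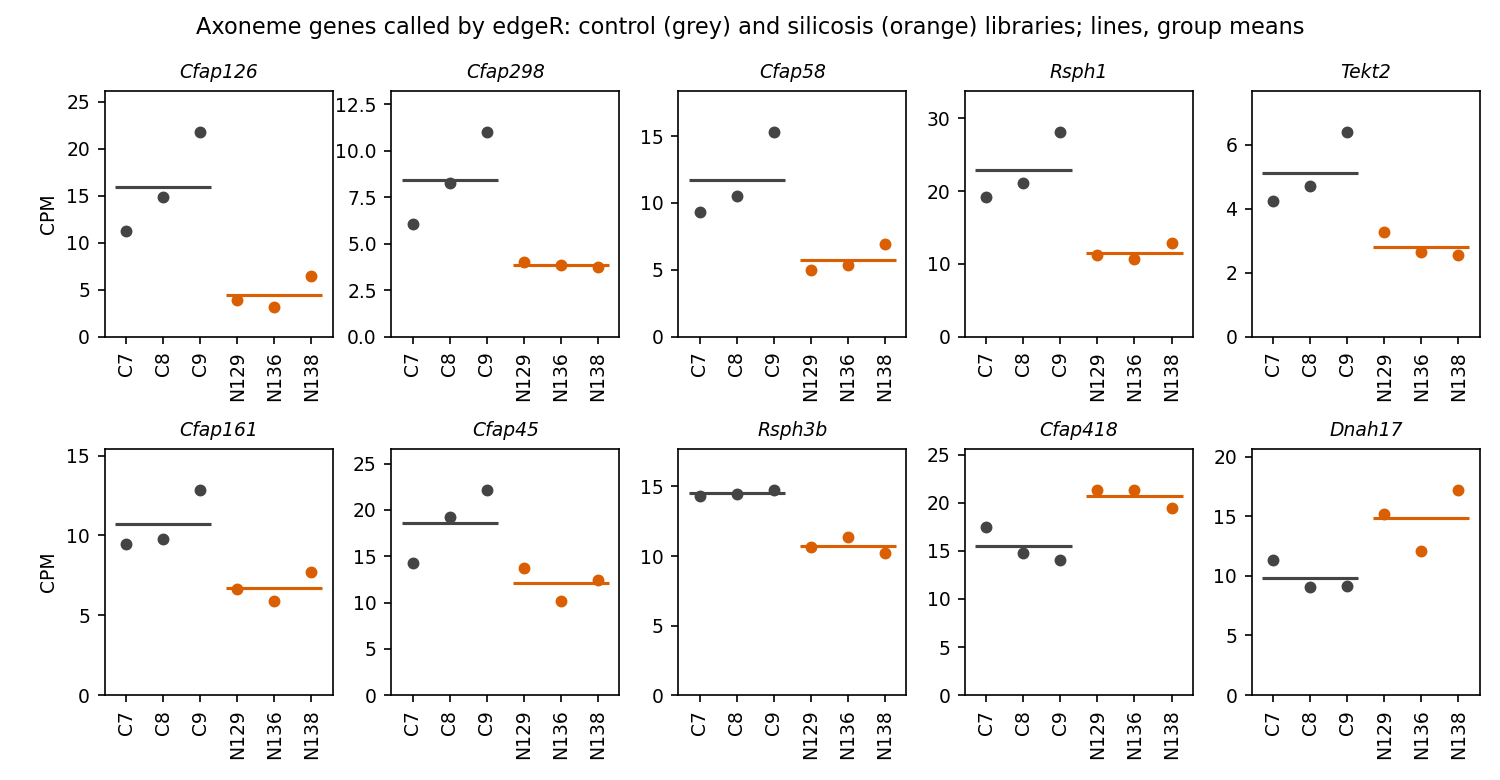
Level in CPM (vertical axes from 0, a separate scale per gene) of the 10 called axoneme genes in each library, with control libraries in grey, silicosis libraries in orange and lines at group means. No gene has overlapping groups, and C9 is the highest control in all 8 genes that are lower in silicosis.

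The other 6 calls were less secure, since each was lost when at least 1 library was left out and each was lost with the members' scaling. The direction was kept in every one of these fits. The groups of these genes did not overlap, so leaving out a library had little room to turn the sign. With the members' scaling the fold changes of Dnah17 and Cfap418 were larger than with the TMM scaling, while fewer mRNAs of all kinds were called. That scaling moved the log2 fold changes of all genes up by a median of 0.14, so positive values were raised by the scaling itself. Tekt2, a tektin filament protein, had 4.25, 4.71 and 6.42 CPM in the controls and 3.26, 2.64 and 2.56 CPM in silicosis. Its log2 fold change was -0.86 (SE 0.24, edgeR adjusted p = 0.0221), and the adjusted p over the fits without a library ran from 0.0310 to 0.0781, with the call lost without C9 or N136. Of its windows, 17.4% are shared with Gm12945. Cfap161, another protein inside the doublets, had 9.49, 9.79 and 12.8 against 6.65, 5.87 and 7.68 CPM, a log2 fold change of -0.67 (SE 0.18, edgeR adjusted p = 0.0206). Its call was lost without C9, N129 or N136 (0.0156 to 0.0707). Cfap45, an inner protein of the doublet wall, had 14.3, 19.3 and 22.2 against 13.7, 10.2 and 12.5 CPM, and N129 was only just below C7. The log2 difference was -0.61 (SE 0.18, edgeR adjusted p = 0.0324), a call lost without C8, C9 or N136 (0.0162 to 0.108).

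Rsph3b, a radial spoke stalk gene, was the steadiest of these within groups, with 14.3, 14.4 and 14.7 CPM in the controls and 10.6, 11.4 and 10.2 CPM in silicosis. The log2 fold change was -0.43 (SE 0.12, edgeR adjusted p = 0.0242), lost without C7, C8, C9 or N129 (0.0324 to 0.0767). It shares 77.9% of its windows with its near copy Rsph3a, so the split of reads between them is uncertain. Rsph3a itself was at -0.42 (SE 0.23, edgeR adjusted p = 0.193) and was not called.

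Both members called higher are best known from cilia outside the airway. Dnah17 is the outer-arm heavy chain of the sperm flagellum. It had 11.3, 9.02 and 9.16 CPM in the controls and 15.2, 12.1 and 17.2 CPM in silicosis, with N136 close above C7. The log2 fold change was 0.59 (SE 0.17, edgeR adjusted p = 0.0273), lost without C8, C9, N129 or N138 (0.0155 to 0.0974). Its fold change was 0.47 to 0.71 in the fits without a library and 0.69 with the members' scaling (adjusted p = 0.0612). Cfap418, a protein of the base of the photoreceptor cilium, had 17.5, 14.8 and 14.1 against 21.3, 21.3 and 19.5 CPM. The fitted log2 fold change was 0.42 (SE 0.13, edgeR adjusted p = 0.0308), lost without C8, C9, N129 or N136 (0.0304 to 0.107). Its fold change was 0.36 to 0.52 in the fits without a library and 0.55 with the members' scaling (adjusted p = 0.154).

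Among the motor proteins, the dynein heavy chains of the outer arm that work in airway cilia were not called. Dnah5 had 135, 154 and 211 CPM in the controls and 182, 157 and 196 CPM in silicosis, and the groups overlapped fully. Its log2 fold change was 0.10 (SE 0.16, edgeR adjusted p = 0.684), with a sign that turned without C7 (-0.04). Dnah9, its partner in the distal cilium, was at 0.02 (SE 0.18) and Dnah11, the proximal form, at -0.19 (SE 0.18). Dnah8, used by sperm in place of Dnah5, was at 0.44 (SE 0.18, edgeR adjusted p = 0.0968) and was called only without N136 (0.57, adjusted p = 0.0478). Of the intermediate chains that anchor the outer arm, Dnai1 was at -0.54 (SE 0.25, edgeR adjusted p = 0.125) and Dnai2 at 0.12 (SE 0.14). Of the 7 outer-arm genes tested, 0 were lower and 1, Dnah17, was higher, with a median of 0.10. At an unadjusted p under 0.05 the edgeR test gave 0 lower, and so did limma-voom, while DESeq2 gave 1 lower at that level and 0 after adjustment.

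None of the 12 inner-arm genes was called, and 0 passed an unadjusted p under 0.05 by edgeR, DESeq2 or limma-voom. Their median was -0.11, and 11 of the 12 values were negative with C9 in the comparison, where the median was 0.01 without C9 and 0.03 without N136. Dnah6, the most abundant of them, had 142, 144 and 195 CPM in the controls and 144, 114 and 167 CPM in silicosis (log2 fold change -0.18, SE 0.17, edgeR adjusted p = 0.441). Dnah3 was at -0.01, Dnah12 at -0.08 and Dnah10 at -0.17. Dnah14 gave the largest positive value of all members, 0.74, but with a wide error (SE 0.39, edgeR adjusted p = 0.180) at a mean of 1.68 CPM in the controls. Without N136 it was called higher (1.06, adjusted p = 0.0340), the only inner-arm gene called in any fit without a library. Dnah7a, Dnah7b and Dnah7c have 40.6%, 48.1% and 48.5% of their windows in common with another gene, so their separate values of -0.16, -0.11 and -0.12 are uncertain.

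In the radial spokes, 2 of the 7 tested genes were lower (Rsph1 and Rsph3b) and 0 were higher, with a median of -0.39, where 16.5% of all mRNAs were lower. Only Rsph1 was called without C7, C8, C9 or N129, and the median was -0.18 without C9. No radial spoke gene was higher at an unadjusted p under 0.05 by any of the 3 tools. The members of this structure did not have 1 common value. Rsph4a, a spoke head protein like Rsph1, had 26.3, 28.1 and 41.5 CPM in the controls and 33.1, 27.2 and 36.5 CPM in silicosis. Its log2 fold change was 0.01 (SE 0.18, edgeR adjusted p = 0.964), with a sign that turned in 4 of the fits without a library (-0.11 to 0.24). Rsph9, a further spoke head protein, was at -0.03 (SE 0.14). Whether Rsph1 differed from Rsph4a in its change was not tested.

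Of the Cfap proteins that line the inside of the doublet microtubules, 3 of 7 were lower (Cfap126, Cfap161 and Cfap45), with a median of -0.47, where 16.5% of all mRNAs were lower. Only Cfap126 was called without C9, without N136 or with the members' scaling, and the median was -0.25 without C9. The other 4 were not called. They include Cfap20 and Cfap52 of the inner junction, where the doublet's incomplete tubule joins the complete one. Cfap20, with the highest mean CPM of this group, was at 0.02 (SE 0.12, edgeR adjusted p = 0.904) and turned sign without C7, C8 or N138. Per kilobase of transcript, Cfap126 was at 15.4 CPM in the controls and 4.33 in silicosis, and Cfap20 at 8.45 and 8.58. Among tektins, which run along the doublet's inner wall, 1 of 5 was lower. Tekt1, the most abundant, was at -0.12 (SE 0.24, edgeR adjusted p = 0.727), and at 0.05 with the members' scaling. Tekt5 had 3.28, 3.06 and 3.001 against 1.43, 1.95 and 2.39 CPM, without overlap but not called (log2 fold change -0.69, SE 0.26, edgeR adjusted p = 0.0737). It was called without N138 (-0.87, adjusted p = 0.0433).

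Of 9 Cfap genes of the central pair, 0 were called (median -0.22), although 1 had an unadjusted p under 0.05 by edgeR, 5 by DESeq2 and 2 by limma-voom. Without N136, Cfap47 (0.64, adjusted p = 0.0337) and Cfap69 (0.40, adjusted p = 0.0368) were called higher, and without N138 Cfap74 was called lower (-0.78, adjusted p = 0.0140). Cfap54, a large scaffold of the central apparatus, had 43.7, 44.7 and 66.3 against 43.1, 43.8 and 61.6 CPM. Its log2 fold change was -0.06 (SE 0.19, edgeR adjusted p = 0.838), and 0.09 with the members' scaling. The 8 Cfap genes at the base of the arms and spokes all had negative values (median -0.38), and 0 were called by any of the 3 tools. At an unadjusted p under 0.05 edgeR and limma-voom gave 1 and DESeq2 gave 3. Cfap44, which tethers an inner arm, had the highest mean CPM of them. Cfap44 had 61.5, 62.1 and 85.9 against 55.1, 39.7 and 65.9 CPM (-0.38 on the log2 scale, SE 0.19, edgeR adjusted p = 0.162). It was called only without N138 (-0.56, adjusted p = 0.0471). Of the 3 N-DRC genes 0 were called, with 1 at an unadjusted p under 0.05 by each of the 3 tools: Drc3 was at 0.12 (SE 0.16, edgeR adjusted p = 0.613), Drc7 at -0.34 and Drc1 at -0.42 (edgeR adjusted p = 0.0765). Cfap97, with the highest mean CPM of the remaining Cfap genes, was at -0.03 (SE 0.12, edgeR adjusted p = 0.885), and at 0.14 with the members' scaling.

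Levels can be compared between genes only per length, here as control or silicosis mean CPM per kilobase of the longest annotated transcript. In control lung Rsph1 ranked 1st at 19.2 CPM per kilobase, Cfap36 2nd at 18.5, Cfap126 3rd at 15.4, Dnah6 4th at 12.7 and Dnah5 5th at 10.7. In silicosis Cfap36 ranked 1st at 14.6, Dnah5 2nd at 11.4, Dnah6 3rd at 11.2, Rsph9 4th at 10.1 and Rsph1 5th at 9.69, with Cfap126 at rank 27 and 4.33 CPM per kilobase. Some of these orders change between libraries. Rsph1 was above Cfap36 in C7 and C9 and below it in C8, Cfap126 was above Dnah6 in C8 and C9 only, and Dnah5 and Dnah6 changed places in N138. Cfap36 was the highest in each of the 3 silicosis libraries, and Cfap126 ranked between 2 and 4 in the controls and between 22 and 32 in silicosis. The lowest levels over all libraries were those of Rsph6a, Dnah14, Tekt3 and Dnah17, at 0.030, 0.164, 0.214 and 0.823 CPM per kilobase.

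Fold changes within the set ran with transcript length. Over the 66 tested members with an annotated transcript, Spearman's rho across genes was 0.49 between log2 fold change and length. It was -0.01 over 15720 tested mRNAs and -0.00 over 94 genes of other cilia lists. These were only the dynein docking and assembly factors, the light chains, the central pair and nexin link genes and the ciliated cell markers described below. Those lists held only 2 genes over 8000 bases, so they barely cover the lengths of the longest members. Without the Dnah genes it was 0.31 over 51 members. The 18 members over 8000 bases had a median log2 fold change of -0.09, the 31 between 2000 and 8000 bases of -0.39, and the 17 under 2000 bases of -0.47. The fold changes also ran with mean log2 CPM (rho 0.43) and with GC content (rho -0.34), and the part of these in the relation to length was not tested. Genes are not independent replicates, and no p is attached.

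**Figure D3:**
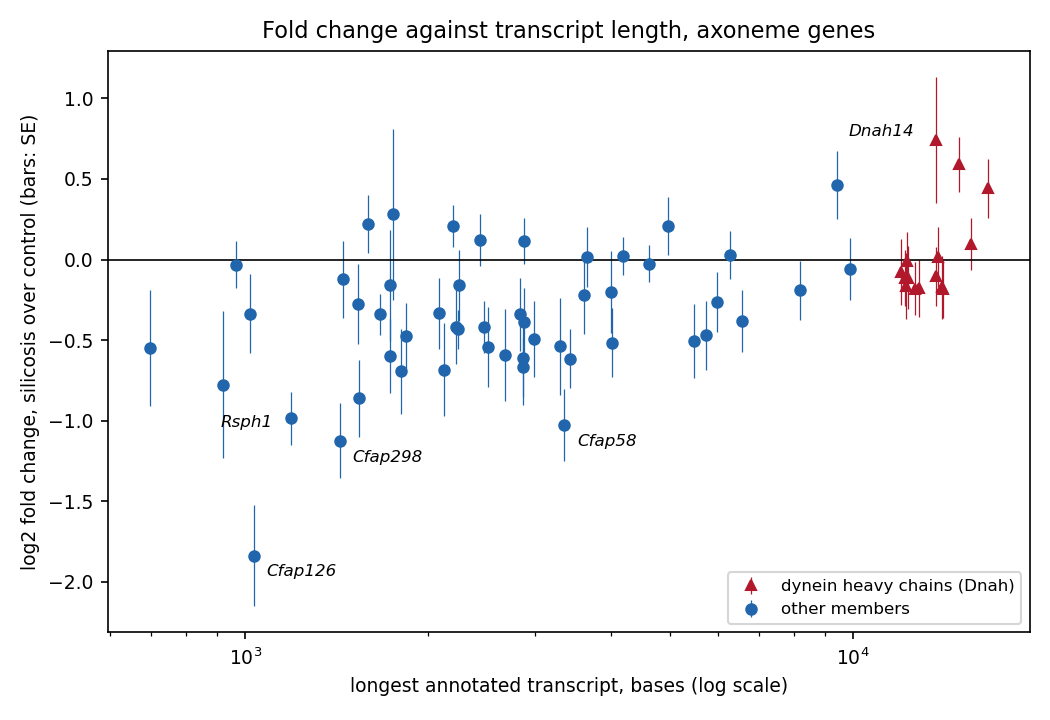
Log2 fold change (silicosis over control, bars SE) against the longest annotated transcript in bases (log axis) for the tested axoneme genes with an annotated transcript; red triangles are dynein heavy chains and blue circles all other members. The long heavy chains lie near 0 or above it, while Cfap126, Rsph1, Cfap298 and most short members lie below 0.

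Regulators of the ciliary programme were measured next. The list holds transcription factors such as Foxj1 and the Rfx genes, and also genes such as Ccna1, Ccno, Deup1 and Cdc20b that are not. Of 15 tested regulators, 1 was lower and 0 were higher, with a median of 0.02. Over all mRNAs 16.5% were lower and 15.3% higher. No regulator was higher at an unadjusted p under 0.05 by edgeR, DESeq2 or limma-voom. Foxj1, the master regulator of motile cilia, had 70.7, 78.7 and 108 CPM in the controls and 99.5, 81.7 and 89.5 CPM in silicosis, a full overlap (0.07 on the log2 scale, SE 0.16, edgeR adjusted p = 0.765). Rfx1 was called lower at -0.35 (SE 0.11, edgeR adjusted p = 0.0428), a call lost when C7, C8, C9, N129 or N136 was left out. Rfx2 was at -0.48 (edgeR adjusted p = 0.0745) and Rfx3 at 0.21 (edgeR adjusted p = 0.177).

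Genes outside the naming rule that serve the same structures were called at rates to be read against the 16.5% of all mRNAs called lower and the 15.3% called higher. Some of them, such as the light chains Dynll1 and Dynll2, also serve cytoplasmic dynein outside cilia. Of 24 docking and assembly factors for dynein arms, 1 was lower and 0 were higher (median -0.10), with 1 higher at an unadjusted p under 0.05 by each of the 3 tools. The call was Ccdc40, which sets the spacing of spokes and inner arms together with Ccdc39. It had 29.4, 39.6 and 59.1 CPM in the controls and 22.8, 18.1 and 24.6 CPM in silicosis (-0.97 on the log2 scale, SE 0.23, edgeR adjusted p = 0.0130). Of 14 dynein light and light intermediate chains, 3 were lower and 1 higher (median -0.28). The lower ones were Dynlrb1, Dynlrb2 and Dynll2 (-0.64), and the higher one was Dynlt2b (0.79). Dynlrb1, a roadblock light chain shared with cytoplasmic dynein, had 48.8, 52.2 and 70.5 against 18.4, 17.3 and 20.8 CPM (-1.60 on the log2 scale, SE 0.15, edgeR adjusted p = 0.000171). Dynlrb2, its counterpart in ciliated cells, was at -1.24 (SE 0.17).

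Of 35 further central pair and nexin link genes, 6 were lower (17.1%, close to the 16.5% of all mRNAs) and 0 higher (median -0.32), and 0 were higher at an unadjusted p under 0.05 by any of the 3 tools. Gas8, a core N-DRC protein also named DRC4, had 17.7, 22.3 and 25.6 CPM in the controls and 10.7, 8.37 and 12.2 CPM in silicosis. Its log2 fold change was -1.07 (SE 0.18, edgeR adjusted p = 0.00260), whereas none of the 3 genes with a Drc symbol was called. The other 5 were Stpg1 at -1.29, Mns1 at -1.26, Ccdc113 at -0.95, Hydin at -0.58 and Mycbpap at -0.50. Hydin is the giant central pair protein, and 52.8% of the windows of Mns1 are shared with other genes. Without C9 this list had 3 lower and 1 higher, and without N129 or N136 3 lower and 0 higher (0 at an unadjusted p under 0.05). The count lower was 9 with DESeq2 and 4 with limma-voom. Ccdc40, Gas8, Dynlrb1 and Dynlrb2 were called in every fit without a library.

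Markers of multiciliated cells outside the naming rule included both lower and higher genes. Of 32 tested, 6 were lower and 3 higher (median -0.12), where 16.5% of all mRNAs were lower and 15.3% higher. Over the fits without a library the counts ran from 4 to 7 lower and from 1 to 3 higher, with 7 and 1 without C7, 4 and 2 without C8 or N129, 4 and 3 without C9, and a median of 0.02 without C9. The lower ones were Meig1 at -1.34, Dynlrb2 at -1.24, Fam183b at -1.16, Sec14l3 at -0.65, Tppp3 at -0.44 and Ezr at -0.31 on the log2 scale. Ezr, at a mean of 313 CPM in the controls where Foxj1 had 85.9 CPM, is not particular to ciliated cells. Dynlrb2 is also counted among the light chains above. The higher ones were Cdhr4 at 0.88, Pifo at 0.66 and Tmem212 at 0.54, and 45.8% of the windows of Cdhr4 are shared with other genes. Library C9 was again the highest control for 27 of these 32 markers, for 32 of the 35 central pair and nexin link genes, and for 15 of 18 club and goblet cell markers.

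**Figure D4:**
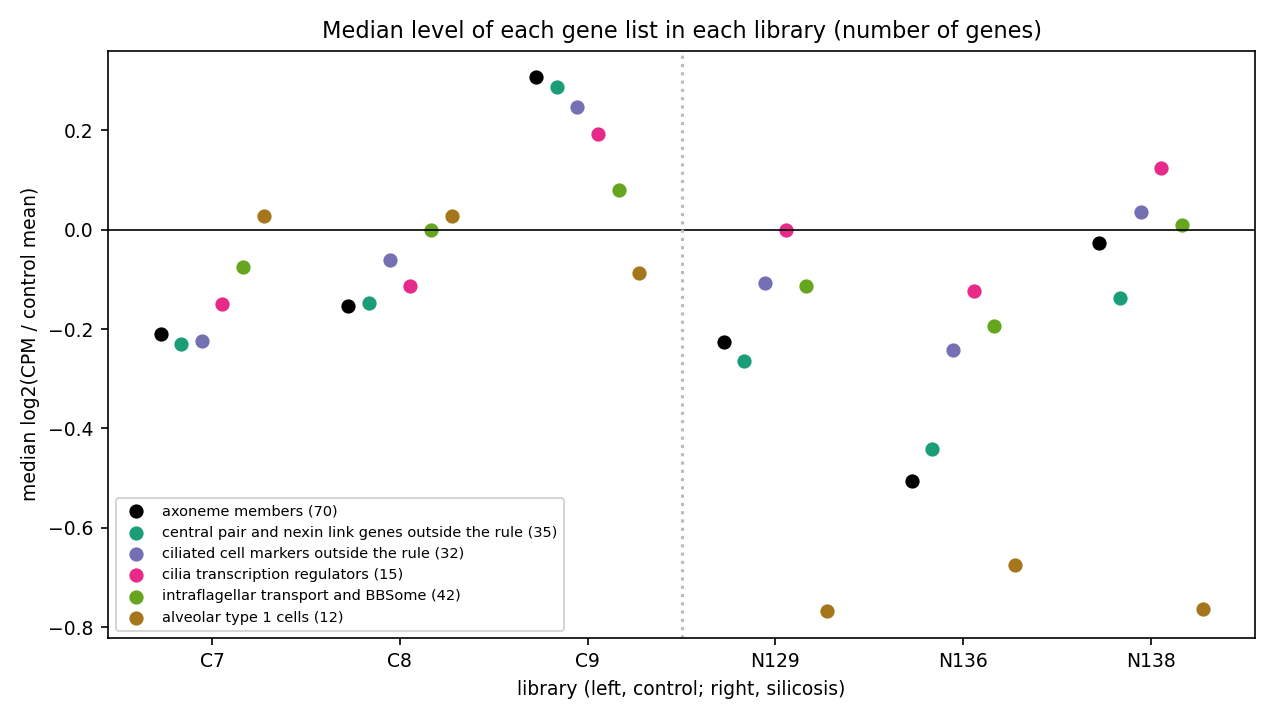
Median over the genes of each list of log2(CPM / control mean), by library (3 controls on the left, 3 silicosis libraries on the right), with the number of genes of each list in its label. The axoneme genes (black) run from -0.21, -0.15 and 0.31 in C7, C8 and C9 to -0.23, -0.51 and -0.03 in N129, N136 and N138, so the groups overlap, while alveolar type 1 markers (brown) separate them.

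Markers of the other epithelial cells of the lung were read beside these genes, and their part in the axoneme result was not tested. Their counts stand against the 16.5% of all mRNAs called lower and the 15.3% called higher. Of 18 club and goblet cell markers, 3 were lower and 4 higher (median 0.42), and their summed level was 14013 to 22253 CPM in the controls and 8668 to 12725 CPM in silicosis. Most of that sum is Scgb1a1, the club cell secretoglobin, at 9755 to 16836 CPM in the controls and 3955 to 7622 CPM in silicosis. The lower ones included Scgb1a1, at -1.18, and the higher ones the secretory cell gene Agr2, at 2.52. Without C9 the counts were 2 lower and 9 higher, with limma-voom 3 and 7, and the lower count was 1 without C8, N129 or N136. Of 8 basal cell markers, 6 were higher and 0 lower (0 lower at an unadjusted p under 0.05 by any of the 3 tools), from a summed 3.999 to 7.20 CPM to 18.0 to 22.7 CPM. The basal keratin gene Krt5 had 0 counts in each control and 80, 108 and 125 counts in N129, N136 and N138. Of 12 alveolar type 1 markers, 10 were lower and 0 higher (0 higher at an unadjusted p under 0.05 by any of the 3 tools), among them Akap5 at -1.19, and their summed level was 7492 to 8229 CPM against 4455 to 4715 CPM. Of 12 alveolar type 2 markers, 2 were lower, among them the lung epithelial factor Nkx2-1 at -0.54, and 1 was higher. In either direction this was 25%, against 31.8% of all mRNAs. Of 14 general epithelial genes, 3 were lower, among them Krt7 at -1.02, and 2 higher (35.7% in either direction). Their summed level was 1255 to 1500 CPM against 1104 to 1214 CPM. Without C9, 1 of these 14 was lower. Foxj1, a defining marker of ciliated cells, was present in every library, as its values above show.

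In the authors' deposited table of the same comparison, 9 members were lower and 2 higher at an adjusted p under 0.05, where 16.6% and 15.4% of all mRNAs in that table were. The 10 members called by the edgeR test were all among them. The further one was Cfap157, a basal body protein, with -0.61 and an adjusted p of 0.0434 in the authors' deposited table, and with -0.60 and an adjusted p of 0.0737 by the edgeR test.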

How the data were processed

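Raw whole-number counts per gene and library were deposited by the authors, unnormalised. Per the submitters' processing notes, the tools were DESeq2 1.36.0, featureCounts 2.0.0, Trimmomatic 0.39, Bowtie2 and HISAT2, and the build was GRCm39; what each did is not stated there. No annotation or strand setting is stated. Per the file headers, the authors' comparison table holds a mean signal (baseMean), log2 fold changes with SE, a test score, p-values and adjusted p-values, of which the log2 values and adjusted p-values deposited there were used.

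The whole mRNA table was fitted with edgeR 4.0.16 in R 4.3.3: filterByExpr, TMM factors, the quasi-likelihood F test, and Benjamini-Hochberg adjustment with a threshold of 0.05. The SE is the size of the log2 fold change divided by the square root of F. The procedure was tested on simulated data. Within groups, pairs of libraries differed by more than sampling noise (chi-square per degree of freedom 15.0 to 79.0). Other settings left out each library, dropped the filter, or used limma-voom (limma 3.58.1), DESeq2 1.42.0 or its size factors. Scaling to the members' total, and leaving out members that share at least 10% of their windows, were chosen after seeing the data.

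Windows of 50 bases, taken every 5 bases, and transcript lengths came from GENCODE transcripts of GRCm38, an earlier build, matched for 67 of 71 members. They cover overlapping genes only where transcripts share sequence, and without a stated strand setting antisense reads cannot be told apart. The members, roles and gene lists were chosen with earlier results of these data known. The genes named are all called members, the member with the highest mean CPM of each role, and the called gene with the lowest p of each list. All other genes named were chosen after their values were seen.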

Additional observations from a re-analysis of the deposited data

How the results depend on the processing

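The count of members called lower was 8 with DESeq2 size factors, without a filter and with limma-voom, 9 with DESeq2, and 4 to 11 when a library was left out. The count called higher was 2 with each of these tools and settings, and 0 to 5 when a library was left out. It was 0 without C8, C9 or N129, where 2, 4 and 2 members were higher at an unadjusted p under 0.05. Scaling to the members' total moved the median of all genes by 0.14 on the log2 scale and gave 4 lower and 0 higher (5 and 5 unadjusted). Leaving out members that share at least 10% of their windows gave 5 lower, in the main fit where 16.5% of all mRNAs were lower. The called members left out were Cfap298, Tekt2 and Rsph3b, and fewer members remained in the count. Dnah17 and Cfap418, both called higher, were kept, although Cfap418 had no annotated transcript to check. The median over members was -0.38 to -0.02 when a library was left out and -0.06 with the members' scaling.

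The sign turned when a library was left out for 24 of the 70 tested members, of which 6 were among the genes named by rule. It turned for 0 of the 10 called members. Their groups did not overlap, so that 0 was largely set by choosing called genes. When a library was left out, log2 fold changes ranged from -0.25 to 0.16 for Cfap54, -0.041 to 0.11 for Cfap20, -0.11 to 0.052 for Cfap97, -0.037 to 0.30 for Dnah5, -0.11 to 0.24 for Rsph4a and -0.33 to 0.19 for Tekt1. With the members' scaling Cfap54 was at 0.090, Cfap97 at 0.14 and Tekt1 at 0.050. The causes were not tested. No paired analysis was possible because the groups share no replicate numbers. The alternative that leaves out members by protein identity was not run, since no protein table was used here. With 3 libraries a group, small differences in genes of low counts, such as Rsph6a and Tekt3, were not detectable.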

Other observations

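The intraflagellar transport and BBSome genes, which build cilia of every kind and carry cargo along them, were not described above. Of 42 tested, 6 were lower and 0 higher (edgeR adjusted p under 0.05, where 16.5% of all mRNAs were lower), with a median log2 fold change of -0.10. At an unadjusted p under 0.05, 2 were higher by edgeR, DESeq2 and limma-voom alike. The lower ones were Arl3 at -1.47, Ift43 at -0.89, Ift20 at -0.58, Kif3a at -0.49, Arl13b at -0.49 and Ift172 at -0.31. Arl3, a small GTPase that releases lipid-modified cargo inside the cilium, had 20.5, 20.0 and 18.6 CPM in C7, C8 and C9 and 6.78, 5.16 and 9.35 CPM in N129, N136 and N138 (SE 0.20, edgeR adjusted p = 0.000921). It was called in every fit without a library, and 11.4% of its windows are shared with other genes. Arl13b, the GTPase that activates Arl3, had 36.3, 36.2 and 36.2 CPM in the controls, with C9 no higher than the others, and 22.8, 25.9 and 28.7 CPM in silicosis. Without C9 this list had 4 lower and 1 higher.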
